A study of Homo sapiens with 18 samples.

Results

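Very wide acetylated domains of HEK293T chromatin were examined, with 273 domains among 55382 merged H3K27ac regions. H3K27ac is the acetylation of histone H3 at lysine 27. Peaks of the 6 H3K27ac libraries were joined wherever they shared 1 bp, and merged regions of at least 8000 bp were kept. The domains were thus chosen by their measured H3K27ac width in these same libraries, so their H3K27ac values are given as a description with no test, whereas the CTCF peaks were not used in the choice. HEK293T is a transformed human embryonic kidney line, and the untreated cells (CTRL) were compared with cells given valproic acid (VPA) at 1 mM for 1 day. Each treatment had 3 replicate libraries for H3K27ac and 3 for CTCF, besides 6 input libraries that were not analysed here. Whether replicates were separate cultures was not stated, so the tests cover the spread between these libraries, which may be technical.

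VPA inhibits histone deacetylases, the enzymes that remove acetyl groups from histones. H3K27ac marks active promoters and enhancers, and long unbroken stretches of it are typically found over strongly active genes, developmental gene clusters and groups of enhancers. CTCF is a zinc-finger protein that binds a directional DNA motif, anchors chromatin loops with its motifs pointing towards each other, and can separate neighbouring chromatin domains.

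The domains spanned 3.00 Mb in all, which was 3.62% of the merged H3K27ac length in 0.493% of the regions. Widths ran from 8005 to 61676 bp with a median of 9464 bp, beside a median of 946 bp over all merged regions. Only 12 domains reached 20000 bp. The choice was a cut through a continuous range of widths, with 97 domains of 8000 to 9000 bp just inside it and 233 regions of 7000 to 8000 bp just outside. The narrowest members were at H2AC19 (8005 bp), RBM15 (8045 bp) and TMPO (8050 bp). The nearest regions left out were at TMEM131L (7979 bp), at RBBP6 (7966 bp) and 357.6 kb from KCNU1 (1 bp short of the limit). Domains lay on 21 of the 22 autosomes listed, most often on chromosomes 19 (29 domains), 17 (27) and 1 (26), and 93 of them had another within 100 kb.

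The sequences under the acetylation varied widely in CpG content, from 0.621 to 8.17 CpGs per 100 bp of domain. CpG-rich and CpG-poor examples from among the widest domains are shown, which are not the extremes of that range. Windows of 120 bases centred on the highest H3K27ac summit of VPA replicate 2 are printed from the plus strand of hg38, with each CpG in capitals.
HOXA7 domain, chr7:27130437-27130556: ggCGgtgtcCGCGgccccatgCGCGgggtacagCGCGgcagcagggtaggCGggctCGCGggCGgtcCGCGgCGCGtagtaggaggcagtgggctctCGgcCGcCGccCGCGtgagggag
ZIC2 domain, chr13:99970797-99970916: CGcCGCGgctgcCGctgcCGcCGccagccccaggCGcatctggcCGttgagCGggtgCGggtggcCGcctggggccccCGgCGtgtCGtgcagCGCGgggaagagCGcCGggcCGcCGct
BMPER domain, chr7:33722413-33722532: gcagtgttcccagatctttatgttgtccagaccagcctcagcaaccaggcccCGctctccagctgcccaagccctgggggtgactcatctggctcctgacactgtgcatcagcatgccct
ZNF608 domain, chr5:124747897-124748016: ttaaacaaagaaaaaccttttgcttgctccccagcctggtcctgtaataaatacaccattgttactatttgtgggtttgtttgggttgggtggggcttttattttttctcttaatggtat
The windows in the HOXA7 and ZIC2 domains held 20 CpGs each, whereas the BMPER window held 1 and the ZNF608 window 0. Over the whole domains there were 4.09 CpGs per 100 bp at HOXA7, 5.63 at ZIC2, 1.17 at BMPER and 1.25 at ZNF608. The median was 3.35 CpGs per 100 bp for all wide domains, 3.66 for regions of 4000 to 8000 bp and 1.99 for all merged regions. Wide domains were therefore not denser in CpG than other broad regions, and they included CpG-poor members.

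A protein-coding gene started inside 204 domains (74.7%), which had a median of 3.63 CpGs per 100 bp. Another 36 domains lay in or across a gene body without a start (2.21 CpGs per 100 bp) and 33 lay between protein-coding genes (1.81). The domains held the starts of 296 of 19111 protein-coding genes, or 1.55%. Against that share, the HOX genes, which encode the homeodomain factors that pattern the body axis, stood at 23 of 39 genes, in 8 domains. Neural development factors stood at 8 of 32 (ZIC2, ZIC5, ISL1, NR2F1, HES1, ID1, ID2 and ID3) and kidney and urogenital factors at 4 of 23 (among them SALL1, FOXC1 and MEIS2). Non-coding RNA hosts were at 5 of 23, namely MALAT1, NEAT1, SNHG1, SNHG3 and SNHG32, all of them abundant nuclear RNAs or snoRNA hosts. The share of 1.55% covers protein-coding genes only, so it is no background for this list. Replication-dependent histone genes stood at 7 of 69, in 3 domains, and immediate early and MYC family genes at 3 of 24 (JUNB, JUND and ZFP36L2). Of 27 cell cycle regulators 1 started in a wide domain, and of 19 histone acetyltransferases and deacetylases, the second of which VPA inhibits, 0 did.

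The labelled cell type was compared with marker genes at their starts. Of 8 HEK293T markers, 5 had a H3K27ac peak within 1000 bp of a start in all 6 libraries, among them NEFL, NEFM, KRT18 and KRT8, while LIN28B, PAX2 and EYA1 had one in none. Of the markers of other cells, PTPRC, ALB, CD3E and HBB had none, and the muscle factor MYOD1 had a peak in 2 libraries.

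Among the 20 widest domains, 6 lay in the HOX clusters and 3 in the stretch on chromosome 8 next to ZNF703, a zinc-finger corepressor gene. The widest domain spanned 61676 bp on chromosome 7 (chr7:27127960-27189635 in hg38) and held the starts of HOXA3, HOXA4, HOXA5, HOXA6, HOXA7, HOXA9, HOXA10 and HOXA11. It was followed by 38676 bp lying 69.2 kb from ZNF703, by 31717 bp at HOXC6, HOXC9, HOXC10 and HOXC11, and by 31377 bp lying 308.1 kb from ZNF703. Next came 23496 bp lying 50.5 kb from NPIPB3, 23429 bp at ZNF608, 22680 bp at ZIC2 and ZIC5, 22678 bp at HOXB3, HOXB5 and HOXB6, 20307 bp within PRRC2B, 20206 bp lying 137.8 kb from ZNF703 over the start of LINC01605, 20090 bp within BBS9 lying 167.2 kb from BMPER, and 20038 bp at HOXB8 and HOXB9. NPIPB3 belongs to a family of near-identical gene copies, so reads there cannot be placed with certainty. The remaining members of the 20 included those at NR2F2 (19789 bp), MALAT1 (19325 bp), SNX5 and MGME1 (18984 bp), FOXC1 (18851 bp), HOXC5 (18847 bp), ID3 (17991 bp), and HOXC4 and HOXC8 (17253 bp). Of the 20, the first near ZNF703 and those at PRRC2B, BMPER and ID3 were among the 5 that were longer in all VPA than in all CTRL libraries, and 0 were shorter. Over all merged regions with a peak in 6 libraries, 23.3% were longer and 0.679% shorter, so these counts were near the background. NR2F2, FOXC1, ID3 and the HOX genes encode developmental regulators, whereas SNX5 encodes a sorting nexin that is broadly used.

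All 273 domains had a H3K27ac peak in all 6 libraries, as had 18407 (33.2%) of all merged regions. At least 8000 bp was covered in 60, 126 and 125 domains in CTRL replicates 1 to 3 and in 92, 228 and 200 in the VPA replicates. The rule joined peaks of both treatments, so a domain could reach the limit through VPA libraries, and the choice can favour domains longer in VPA. The mean H3K27ac length in a domain was 7026, 8878 and 8729 bp in CTRL replicates 1, 2 and 3, and 8017, 10387 and 9945 bp in the VPA replicates. The CTRL and VPA ranges overlapped because replicate 1 lay low in both treatments. The means were 8211 ± 1029 bp in CTRL and 9450 ± 1260 bp in VPA (± SD, n = 3 libraries each), and length was greater in VPA by 992, 1508 and 1215 bp within replicates 1, 2 and 3. The median gain per domain was 1096 bp or 14.7%, beside 17.5% over all regions with a peak in 6 libraries, so the relative gain was no larger in wide domains.

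Counted domain by domain, all VPA values lay above all CTRL values in 62 domains (22.7%) and below in 2 domains (0.733%). The same counts over all regions with a peak in 6 libraries gave 23.3% and 0.679%, and 22.4% of the 3104 such regions of 4000 to 8000 bp were longer. The share of longer domains was thus near the background. With both replicate 1 libraries set aside, 185 domains (67.8%) were longer and 20 (7.33%) shorter in VPA, against a background of 64.8% and 3.78%. Local background was taken in multiples of the background coverage of the library, which is the lowest local background in its list. In the replicate 1 libraries the median local background of the domain peaks was 14.0 times in CTRL and 12.2 times in VPA, compared with 2.97 to 3.54 times in the other libraries. The sources used here do not say if MACS had an input control, so this background may describe input or ChIP fragments. What this difference contributes to the lengths was not tested. Single libraries moved the counts as well. With the domains chosen anew, 179 were longer without VPA replicate 1, and 20 were shorter without CTRL replicate 1, 1 without CTRL replicate 2 and 5 without VPA replicate 3. No background was taken with single libraries left out, and fewer libraries make such calls easier.

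Splitting also differed between libraries. A domain consisted on average of 2.56, 2.11 and 2.17 peaks in CTRL replicates 1 to 3, and of 2.51, 1.38 and 1.88 peaks in the VPA replicates. Domains held as 1 peak numbered 66, 96 and 89 in CTRL and 57, 193 and 117 in VPA, so that VPA replicate 2 stood far apart and replicate 1 had fewer such domains in VPA. Mean peak numbers per domain were 2.28 ± 0.244 and 1.92 ± 0.564 (± SD, n = 3 libraries each), a difference smaller than the SD of the VPA libraries. Within replicates 1, 2 and 3 it was -0.048, -0.722 and -0.289 peaks. Fewer peaks in all VPA than in all CTRL libraries were counted in 13 domains (4.76%) and more in 0. The background was 0.435% for fewer and 0.0652% for more over all 6-library regions, most of which are narrow, and regions of 4000 to 8000 bp gave 1.19% for fewer. The count of 13 became 21 without CTRL replicate 1, 38 without VPA replicate 1, and 51 without both replicate 1 libraries. Fewer libraries make such a call easier, and no background was taken in these settings, so nothing is drawn from the rise. A single peak of at least 8000 bp occurred in some library in 232 domains, and in 41 domains no library had one. In 19 domains all 6 libraries did.

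Examples show how the pieces joined. The 38676 bp domain near ZNF703 was split into 9, 10 and 10 pieces in CTRL but 4, 1 and 5 in VPA. At YWHAE, which encodes the 14-3-3 epsilon adaptor, there were 6, 4 and 4 pieces in CTRL but 3, 1 and 2 in VPA. A domain within PRRC2B held 6, 7 and 6 pieces in CTRL but 4, 1 and 3 in VPA. In these domains the VPA peaks were fewer and covered more length in all libraries. Only 2 domains went from at least 2 peaks in all CTRL libraries to 1 peak in all VPA libraries. They lay across an end of CTC1 near AURKB (3, 2 and 2 peaks in CTRL) and 25.8 kb from HEY1, a Notch target gene (5, 5 and 3 peaks in CTRL).

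**Figure D1:**
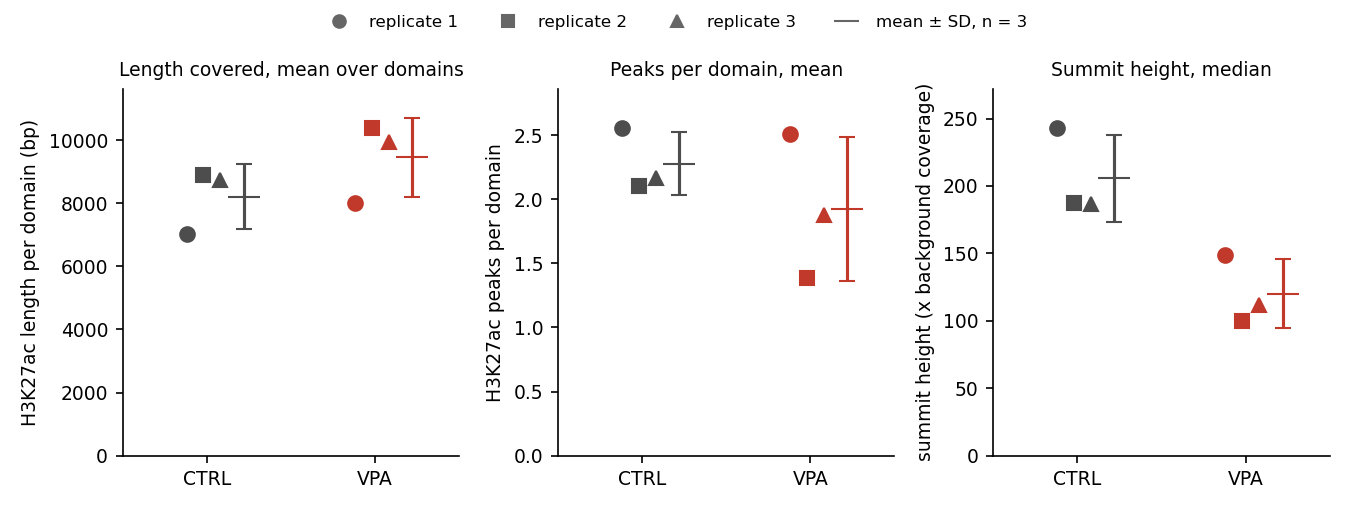
Each point is 1 H3K27ac library (marker shape gives the replicate), with the mean and SD of 3 libraries beside the points. The panels plot the mean length covered per domain in bp, the mean number of peaks per domain and the median summit height in multiples of the background coverage. VPA points lie above CTRL points of the same shape in length and below them in height, and VPA replicate 2 has the fewest peaks per domain (1.38).

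Summit height was given as fragments over the highest summit in multiples of the background coverage of the library. Its median over the domains was 243, 188 and 187 in CTRL and 149, 99.7 and 112 in VPA, with no overlap between treatments. Height was lower in all VPA than in all CTRL libraries in 214 domains (78.4%) and higher in 6 (2.20%), whereas the background was 28.1% lower and 9.92% higher. In regions of 4000 to 8000 bp 52.7% were lower. The median VPA to CTRL ratio of height was 0.612 in wide domains, 0.697 in regions of 4000 to 8000 bp and 0.823 in all 6-library regions. Of 1246 other regions whose CTRL height reached the domains' median, 83.8% were lower, with a median ratio of 0.597. Of the 137 wide domains at that height 96.4% were lower. Both sets were picked for high CTRL values, which by itself favours lower VPA values. No conclusion is therefore drawn from these shares. VPA lists held more peaks (means 28560 in CTRL and 40083 in VPA), and what this contributes to the heights was not tested. Both a longer covered length and a lower summit in all VPA libraries were seen in 42 of the 62 longer domains. That joint count was not made over all regions, so no link between length and height is drawn from it.

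The 6 domains with higher summits in all VPA libraries had low CTRL summits, apart from BCAT2. At a domain within SEMA3C, a secreted semaphorin gene, height was 13.2, 12.1 and 14.8 in CTRL and 23.9, 21.8 and 22.7 in VPA. At the one 25.8 kb from HEY1 it was 18.5, 19.3 and 28.2 in CTRL and 32.6, 31.1 and 35.8 in VPA. The others lay within SPINT2 near PPP1R14A, within ERC2 lying 21.3 kb from WNT5A, 17.0 kb from PCBP1, and at BCAT2. Neither treatment's values overlapped the other's at these domains.

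The largest gains of length, among domains whose groups did not overlap, included those at CSK, ZNF703, NANOS3 and PCBP1. No CTRL library covered 8000 bp at CSK (at most 3521 bp) or near NANOS3 (at most 6324 bp), so the choice of these domains leaned on VPA peaks. The domain at CSK, the kinase that restrains Src family kinases, measured 2927, 3521 and 3474 bp in CTRL and 5065, 13251 and 11346 bp in VPA. VPA replicate 1 lay far below the other VPA libraries there, with means of 3307 ± 330 and 9887 ± 4284 bp (± SD, n = 3 libraries each). The domain 4.95 kb from NANOS3 went from 4850 ± 1591 to 9815 ± 1301 bp and the one 42.3 kb from PCBP1, over the start of LINC01816, from 8389 ± 2482 to 13213 ± 519 bp (± SD, n = 3 libraries each). The ID genes, from the neural list, encode inhibitors of basic helix-loop-helix factors. At ID3 the lengths were 9951, 12888 and 11866 bp in CTRL and 15258, 17424 and 15513 bp in VPA, and at ID1 they were 5700, 7143 and 8009 bp in CTRL and 8791, 9039 and 9732 bp in VPA. At ID2 the groups overlapped, with means of 9659 bp in CTRL and 9714 bp in VPA.

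Domains of the other lists are given by their values in turn. Of the 7 domains with neural development factors, those at ID1 and ID3 were the 2 that were longer in all VPA libraries, and 0 were shorter, a share near the background of 23.3% longer and 0.679% shorter. At ZIC2 and ZIC5, which encode zinc-finger factors of the neural tube, length was 16580, 21836 and 20164 bp in CTRL but 16054, 22036 and 20185 bp in VPA. HES1, a Notch target, had means of 8974 and 9436 bp, ISL1 of 8825 and 8853 bp, and NR2F1 of 8783 and 8684 bp in CTRL and VPA. The groups overlapped at all of these.

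Among the non-coding RNA genes, MALAT1 lay in a domain of 15198, 16631 and 16514 bp in CTRL but 16493, 19179 and 17629 bp in VPA, where only VPA replicate 1 fell within the CTRL range. At NEAT1, the RNA that builds paraspeckles, the domain measured 7076, 8729 and 9958 bp in CTRL but 7022, 9500 and 9564 bp in VPA. The 1 domain of this list that was longer in all VPA libraries was at RCC1 and SNHG3, with 11450, 11487 and 12500 bp in CTRL but 12781, 13083 and 12981 bp in VPA. The immediate early genes JUNB and JUND, subunits of the AP-1 factor, had means of 5518 and 7717 bp and of 4621 and 7138 bp in CTRL and VPA, with overlapping groups. JUNB ranged from 2672 to 7194 bp in CTRL alone. Of the 3 histone gene domains, 0 were longer or shorter in all VPA libraries. The background was 23.3% longer and 0.679% shorter, and these lists hold too few domains to be set against it.

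The 2 domains that were shorter in all VPA libraries both lay on chromosome 11 and held no CTCF summit in any library. One lay within FAT3, an atypical cadherin gene, 122.5 kb from MTNR1B (chr11:92837224-92847105), with 7902, 9792 and 8851 bp in CTRL and 4102, 5677 and 5241 bp in VPA. The other lay within ART1, an ADP-ribosyltransferase gene, with 8507, 8832 and 8544 bp in CTRL and 7230, 6001 and 7493 bp in VPA. The VPA values at FAT3 lay below the lowest CTRL value by more than 2 kb, whereas those at ART1 came closer.

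Domains in the HOX clusters did not follow the general gain in length. Covered length cannot exceed the merged width, 196.2 kb for the 8 HOX domains, so CTRL replicates 2 and 3 left little room for a gain. The 8 HOX domains covered 162, 192 and 189 kb in CTRL and 149, 178 and 178 kb in VPA, so that the groups overlapped but each VPA library lay below the CTRL library of its number. The means were 180.8 ± 16.4 and 168.5 ± 16.7 kb (± SD, n = 3 libraries each), with differences of -12.8, -13.7 and -10.7 kb within replicates 1, 2 and 3. Of these 8 domains, 0 were longer or shorter by the count over all 6 libraries, while 7 were shorter in replicates 2 and 3 alone. The background was 23.3% longer and 0.679% shorter over 6 libraries. In replicates 2 and 3 it was 3.78% shorter, and 7.33% of all wide domains were shorter. Leaving out replicate 1 was chosen after seeing the data. In replicates 2 and 3 most of the difference lay in the HOXC cluster, with 49.0, 65.4 and 64.7 kb in CTRL and 44.1, 54.3 and 55.6 kb in VPA. Its pieces numbered 16, 6 and 6 in CTRL and 13, 13 and 10 in VPA, so the count ran opposite ways in replicate 1 and in the other replicates. Median summit height in the HOX domains was 345, 261 and 239 times the background coverage in CTRL but 174, 108 and 116 times in VPA. CTCF summits in them numbered 21, 29 and 24 in CTRL but 24, 27 and 27 in VPA. The median local background was 16.4 and 13.2 times the background coverage in replicate 1 of CTRL and VPA. It was 3.15 to 3.66 times in the other libraries, and its part in the lengths was not tested. The HOXA domain hardly differed, with means of 58219 bp in CTRL and 57933 bp in VPA, and it was a single peak only in VPA replicate 2. Of the 4 domains of the kidney and urogenital factors, 0 were longer or shorter over all 6 libraries, too few domains to set against the background. Mean lengths in CTRL and VPA were 16011 and 15388 bp at FOXC1, 8709 and 7649 bp at SALL1, and 8105 and 8022 bp at MEIS2.

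The 10 domains around ZNF703 showed the opposite pattern. They were picked out after their values were seen. They lay on chromosome 8 between 37300147 and 37704705, 9 of them between genes at up to 383.4 kb from ZNF703 and 1 over its start. Together they covered 144, 147 and 147 kb in CTRL and 162, 169 and 164 kb in VPA, with no overlap. Their merged width was 173.7 kb, so a gain over CTRL was possible here. The means were 146.0 ± 2.17 and 165.0 ± 3.78 kb (± SD, n = 3 libraries each), and 6 of the 10 domains were longer in all VPA libraries, against the background of 23.3%. They were split into 41, 32 and 31 peaks in CTRL but 29, 12 and 22 in VPA. Median summit height was 131, 149 and 139 times the background coverage in CTRL but 120, 96.9 and 106 times in VPA. CTCF summits numbered 14, 13 and 12 in CTRL but 7, 13 and 12 in VPA, so only VPA replicate 1 was apart. These domains were CpG-poor (median 1.33 per 100 bp) and the HOX domains were not (3.38). The domain over the ZNF703 start itself covered 14415 bp in CTRL and 14714 bp in VPA on average.

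**Figure D2:**
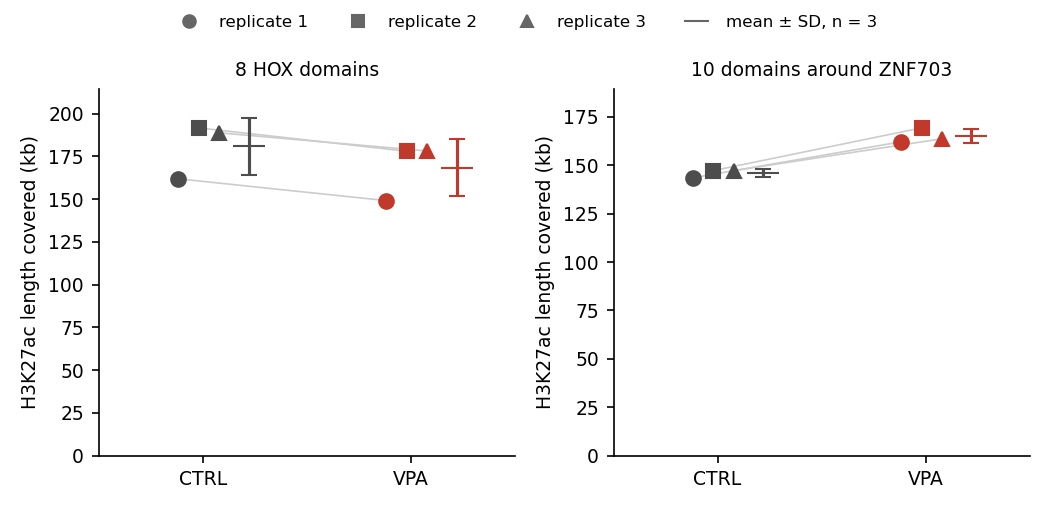
H3K27ac length in kb covered by the 8 HOX domains and by the 10 domains around ZNF703, with 1 point per library, grey lines joining replicates of the same number, and the mean and SD of 3 libraries. Along each line the HOX value is lower in VPA (means 180.8 and 168.5 kb) and the ZNF703 value higher (146.0 and 165.0 kb).

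The count of longer domains was also taken by position relative to genes. Length was greater in all VPA libraries in 37 of the 204 domains with a start inside (18.1%), 9 of the 36 in gene bodies (25%) and 16 of the 33 between genes (48.5%), against the background of 23.3%. In replicates 2 and 3 alone the shares were 66.7%, 61.1% and 81.8% against a background of 64.8%, so the gap was narrower and gene bodies stood below starts. Outside the ZNF703 group, 10 of 24 domains between genes were longer (41.7%). Median gains were 14.7%, 9.38% and 16.4% in the same order, so the typical gain differed less than the counts. No test was made of this difference, since the domains were selected on the same H3K27ac widths.

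**Figure D3:**
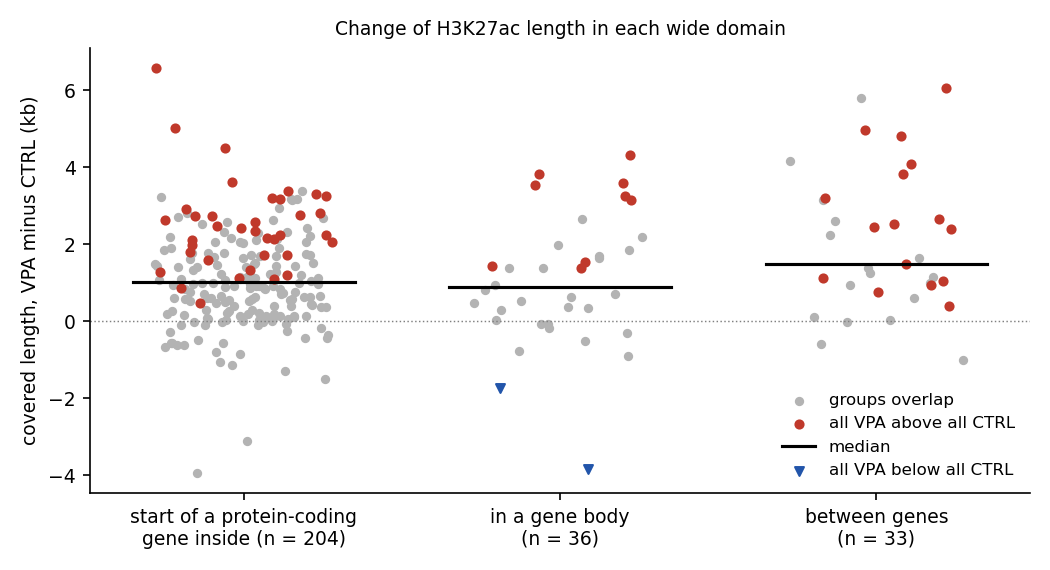
Each point is a domain, placed by where it lies relative to protein-coding genes, and the height is the mean covered length in VPA minus CTRL in kb. Red points (62) have all VPA values above all CTRL values, blue triangles (2) the reverse, grey points overlap, and black lines mark the medians, which are all above 0.

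CTCF summits were then counted inside the domains, a measure that the choice of domains had not used. Domains held 261, 365 and 340 CTCF summits in CTRL replicates 1, 2 and 3 and 289, 349 and 319 in the VPA replicates. Per Mb of domain this was 87.1, 121.8 and 113.5 in CTRL and 96.4, 116.5 and 106.5 in VPA, with overlapping ranges and replicate 1 lowest in both. The means were 107.5 ± 18.1 and 106.5 ± 10.0 per Mb (± SD, n = 3 libraries each, exact permutation test, two-sided, p = 1, adjusted p = 1). In all, 6 tests were made on CTCF, and p-values were adjusted over the 6. As a share of each CTCF list, the summits in domains made up 0.626 ± 0.0276% in CTRL and 0.674 ± 0.109% in VPA (exact permutation test, p = 0.7, adjusted p = 0.84). With 3 libraries against 3 the smallest possible p is 0.1, so these tests could not pass 0.05. In 148 domains all 6 libraries had a CTCF summit and in 60 none had.

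By domain, CTCF summits were more numerous in all VPA libraries in 0 domains and less numerous in 1 domain (0.366%). The background over all merged H3K27ac regions was 0.0488% and 0.101%. The exception was the domain within ERC2, 21.3 kb from WNT5A, with 1 summit in each CTRL library and 0 in each VPA library. The most CTCF summits, 9 on average over the 6 libraries, were in the HOXA domain, with 6, 10 and 8 in CTRL and 9, 11 and 10 in VPA. The HOXB5 domain followed with a mean of 5.17, MIDN with 4.5, ARMC5 with 4 and HOXC4 with 3.83. The HOXB4 domain held 0 in all libraries, so HOX domains differed widely among themselves.

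Wide domains carried fewer CTCF summits for their length than other acetylated regions. Density per Mb was 154.4, 191.1 and 182.6 in CTRL and 152.9, 184.0 and 172.2 in VPA in the other merged regions. Domain density was 0.617 times that on average, between 0.564 and 0.638 in the single libraries, and lower in 6 of 6 (exact sign-flip permutation test, two-sided, p = 0.031, the smallest possible, adjusted p = 0.0938). It could not pass 0.05 after adjustment, because 0.0938 is the lowest adjusted value that the 6 tests allow. The ratio differed little between treatments (log2 -0.72 ± 0.09 in CTRL and -0.67 ± 0.02 in VPA, exact permutation test, p = 0.7, adjusted p = 0.84). Against regions of 4000 to 8000 bp alone the log2 ratio was smaller (-0.24, exact sign-flip permutation p = 0.031).

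At the edges, a CTCF summit within 1000 bp on either side was found at 9.89%, 13.2% and 12.5% of the 546 edges in CTRL and at 8.61%, 12.6% and 12.1% in VPA. The means were 11.8 ± 1.73% and 11.1 ± 2.19% (± SD, n = 3 libraries each, exact permutation test, p = 0.6, adjusted p = 0.84). Edges were lower than the inside in CTCF density, at 0.515 times on average and in 6 of 6 libraries (0.422 to 0.559, exact sign-flip permutation test, p = 0.031, the smallest possible, adjusted p = 0.0938). This adjusted value was also the lowest that the 6 tests allow. The edge zone takes in both sides of the edge, and they were unlike. The inner kb held 71.4 to 100.7 summits per Mb and the outer kb 14.7 to 31.1. From 1 to 5 kb outside, density was 46.2 ± 5.99 per Mb in CTRL and 44.1 ± 8.93 in VPA (± SD, n = 3 libraries each). Both edges carried CTCF in all 6 libraries in only 3 domains, at SMAD6, RPL13 and TNFRSF14, 1 edge did in 31, and 200 domains had it at an edge in no library.

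**Figure D4:**
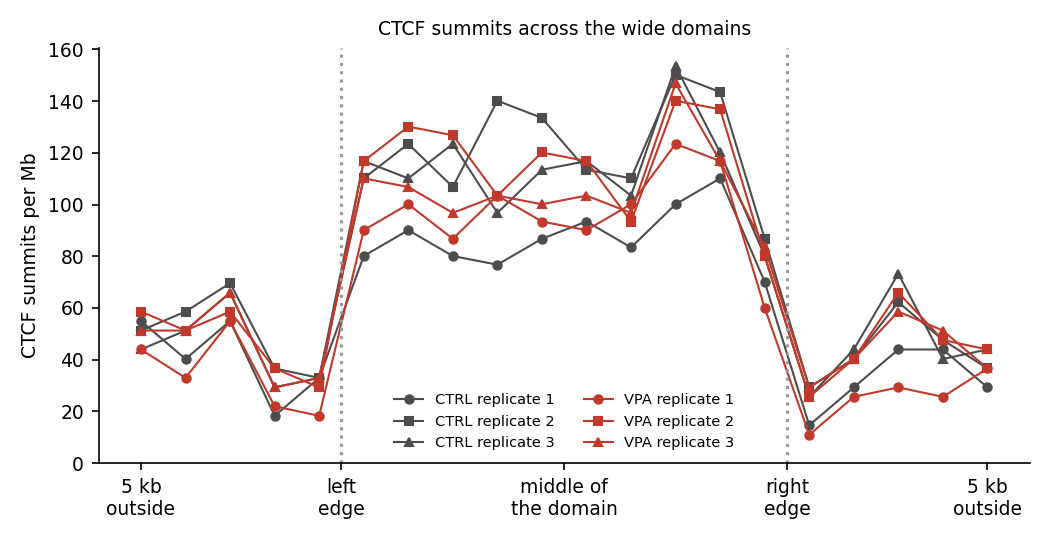
CTCF summits per Mb in 10 equal parts of each domain and in 5 flanking kb on either side, summed over the 273 domains, with 1 line per library. Density is high throughout the inside, lower in the first kb outside with both sides pooled (28.1 per Mb on average in CTRL and 24.4 in VPA), and CTRL and VPA lines cross each other.

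Motif content of the CTCF peaks also varied by place. The motif searched on both strands within 100 bp of the summit was CCANNAGNNGGC, a core of the CTCF site. Among CTCF regions with a peak in 6 libraries, it was found in 14 of 39 at domain edges (35.9%), 32 of 208 inside wide domains (15.4%), 21.1% of those in other acetylated regions and 29.1% of those outside acetylation. Sites on the inner side of an edge are counted both at the edge and inside. Windows of equal length moved by 2 kb from all CTCF regions held it in 0.717%. Of the 14 motifs at edges, 11 pointed into the domain and 3 out of it, as these examples show with the motif in capitals on its own strand, in hg38.
NEAT1, left edge, chr11:65416501-65416560, plus strand: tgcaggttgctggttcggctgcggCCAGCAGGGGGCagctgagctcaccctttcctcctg
UQCRHL, left edge, chr1:15792174-15792233, plus strand: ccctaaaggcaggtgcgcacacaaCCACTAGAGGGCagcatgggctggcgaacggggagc
ID2, right edge, chr2:8685904-8685963, minus strand: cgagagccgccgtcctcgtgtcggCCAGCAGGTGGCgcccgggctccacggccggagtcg
DLX2, right edge, chr2:172104001-172104060, minus strand: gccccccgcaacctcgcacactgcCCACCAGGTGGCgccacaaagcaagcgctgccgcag
ARHGAP11A, left edge, chr15:32610954-32611013, minus strand: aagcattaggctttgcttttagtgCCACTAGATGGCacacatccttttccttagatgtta
ARHGAP11B, left edge, chr15:30621554-30621613, minus strand: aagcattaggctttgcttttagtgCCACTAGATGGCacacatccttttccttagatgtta
HOXA7, inside, chr7:27161114-27161173, minus strand: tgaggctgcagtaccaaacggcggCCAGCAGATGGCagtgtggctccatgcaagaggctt
The motifs at NEAT1 and UQCRHL on the plus strand and those at ID2 and DLX2 on the minus strand point into their domains. Those at ARHGAP11A and ARHGAP11B, a gene and its duplicate, are identical over the 60 bases and point outwards, so they are not independent sites. The HOXA7 motif lay 28.5 kb from the right end of the widest domain.

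Gaps under 5 kb separated 12 pairs of neighbouring domains. Only the gap of 1178 bp between the HOXC6 and HOXC4 domains held a CTCF summit, in 5 of 6 libraries with VPA replicate 1 as the exception. The other gaps, including those between HOXB4 and HOXB5 (2798 bp) and between HOXB5 and HOXB8 (1487 bp), held 0 in every library.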

How the data were processed

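ChIP-seq peak lists of 12 libraries were analysed. The authors aligned reads to hg38 with Bowtie2 and called peaks in each library with MACS3 3.0.0a7 at a q-value of 0.05, per the labels and the study's methods. The deposited lists hold intervals and summits, a fold enrichment (ratio), a −log10 p-value, a −log10 q-value and a score. No read totals are given, so depth in reads is unknown. Pileups and local backgrounds were recovered from the deposited fold and −log10 p-value (pileups whole within 0.05 in at least 99.9975% of peaks). The lowest local background, 3.51 to 3.95 fragments, served as background coverage.

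Covered length is the summed length of a library's peaks in a domain. Starts came from GENCODE release 44. Python 3.11.15, numpy 2.4.6, pandas 2.3.3 and scipy 1.17.1 were used, with scripts tested on simulated data. CTCF was compared with exact permutation tests, adjusted by Benjamini-Hochberg. The domains, gene lists and named genes (the 20 widest domains, 5 largest gains and losses without overlap, 5 with most CTCF, list members) were chosen with earlier results of these data known. Same-numbered H3K27ac libraries deviated together (r = 0.616, 0.353 and 0.319 over all merged regions). Crossed libraries came close, with r = 0.281 for CTRL replicate 2 with VPA replicate 3, and 0.249 for CTRL replicate 3 with VPA replicate 2. The numbers thus set replicate 1 apart but pair replicates 2 and 3 only weakly. Differences within replicates are given as a description. Some items are not reported here. Alternatives covered width, merging, peak strength, list length, edge zone and omitted libraries.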

Additional observations from a re-analysis of the deposited data

How the results depend on the processing

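The number of domains follows the width limit and the merging (909 at 6000 bp, 109 at 10000 bp, 55 at 12000 bp, and 716 with peaks up to 1000 bp apart merged). With that merging, peaks per domain were higher in VPA by 0.218. Single VPA libraries also set the number of domains, which was 187 without H3K27ac VPA replicate 2 and 234 without VPA replicate 3. Leaving out any other H3K27ac library gave 267 to 273. The greater H3K27ac length in VPA kept its direction in 13 of 13 alternatives, from 599 bp without VPA replicate 2 to 1945 bp without VPA replicate 1.

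The differences in CTCF between VPA and CTRL turned their sign in some alternatives. Summits per Mb differed by 3.29 at equal list lengths and by -11.2 to 6.17 with a library left out. Edges differed by -1.71 to 0.519 percentage points and the share of the list by -0.0111 to 0.0969 with a library left out. The log2 ratio to other regions differed by -0.014 with domains of at least 12000 bp and by -0.00475 to 0.0836 with a library left out. The lower CTCF density kept its direction throughout. With a library of either antibody left out, log2 values ran from -0.77 to -0.67 against other regions and from -0.98 to -0.79 at edges. With a CTCF library left out they ran from -0.71 to -0.67 and from -0.98 to -0.90, and p was 0.0625, the smallest possible with 5 libraries.

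Same-numbered CTCF libraries did not all deviate together (r = 0.323, 0.051 and 0.227), so the numbers are not taken as pairs. With the replicate block the 4 CTCF differences between treatments, -1.001 per Mb, -0.733 percentage points, 0.0482 percentage points and 0.05 on the log2 scale, had exact p of 1, 0.25, 0.5 and 1, where 0.25 is the smallest possible. The count of domains longer in all VPA libraries, 62, became 179 without VPA replicate 1 and 185 without both replicate 1 libraries, and that of shorter domains, 2, became 20 without CTRL replicate 1, 1 without CTRL replicate 2 and 5 without VPA replicate 3. Such calls come more easily with fewer libraries, and the background of longer regions rose to 64.8% without both replicate 1 libraries. Without the HOX and ZNF703 domains (chosen after seeing the data, as was leaving out both replicate 1 libraries) the length difference was 1300 bp. Peak lists hold no reads, so depth limits which weak peaks joined a domain to an unknown degree.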
